A study of Mus musculus with 6 samples.

Results

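The proteasome subunits are the proteins of the main protease complex of the cell, together with its activators and the chaperones that help to build it. Members were taken by gene name: every locus of the deposited count table whose name holds Psma, Psmb, Psmc, Psmd, Psme, Psmf or Psmg and a number, without the immunoproteasome genes Psmb8, Psmb9 and Psmb10. The rule found 46 loci of 45 genes among the 59699 loci of the table. They comprised 8 loci of 20S core alpha subunits, 8 of 20S core beta subunits, 9 of the 19S base, 8 of the 19S lid, 5 of activators and regulators and 8 of assembly chaperones. RNA was sequenced from adrenal glands of 3 Armc5(-/-) samples (KO) and 3 wild-type samples (WT). All were female mice aged 30 weeks on a mixed background written as 129 sv X CD1. Whether each sample was 1 animal is not in the labels, and the p-values rest on the spread of these samples, which may be technical. ARMC5 is an armadillo-repeat protein that serves as a substrate adaptor of a cullin 3 ubiquitin ligase, and in humans its gene is mutated in bilateral macronodular adrenal hyperplasia.

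The proteasome degrades proteins that carry ubiquitin chains. Its barrel, the 20S core, stacks rings of alpha subunits, which form the gate, around rings of beta subunits, of which Psmb5, Psmb6 and Psmb7 carry the proteolytic sites. The 19S particle caps the barrel: its base holds the ATPases that unfold substrates and the receptors that bind ubiquitin, and its lid holds the enzyme that removes ubiquitin. The transcription factor NRF1, encoded by Nfe2l1, is known to raise their genes together when proteasome activity is short.

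The libraries held between 70547288 and 130573434 counts, and the proteasome loci took 0.242% to 0.265% of the counts at named loci in WT and 0.256% to 0.260% in KO. Armc5 had 2763, 3263 and 2233 counts in WT and 395, 269 and 473 in KO, or -2.90 as log2 fold change (SE 0.10; adjusted p = 0.00041, edgeR). Values below are CPM, the counts of a locus relative to the size of its library, after scaling by the trimmed mean of M values (TMM), and log2 fold changes are KO over WT, unless another scaling is named. The TMM factors did not overlap between the groups, from 0.862 to 1.00 in WT and from 1.07 to 1.10 in KO, so each family was also read under scaling by total counts and by the counts of Rn7sk, the abundant 7SK RNA. The median log2 fold change of all tested loci was -0.0063 under TMM, 0.22 under total counts and 0.19 under Rn7sk scaling. Markers of both parts of the gland were present: all 6 cortex markers summed to 27042 to 47266 CPM in WT and 22464 to 23821 in KO, and all 5 chromaffin markers to 1742 to 2503 and 3620 to 4016. The 6 hepatocyte markers summed to 17.1 to 61.7 CPM in 5 libraries and to 3333 in KO replicate 3. Endothelial markers summed to 432 to 469 CPM in WT and 311 to 382 in KO, macrophage markers to 55.2 to 234 and 49.8 to 61.4, lymphocyte markers to 1.32 to 5.19 and 1.88 to 3.52, and adipocyte markers to 99.5 to 105 and 60.8 to 87.2. The part of cell makeup in the values below was not tested, and in RNA of a tissue fewer cells of a type and less RNA per cell cannot be told apart.

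Of the 32 tested genes of the core, base and lid, 31 had slightly lower TMM-scaled levels in KO glands, and 1 member passed the test. The median of these 32 was -0.21 under TMM but near 0 under the other scalings, at 0.025 under total counts and 0.0029 under Rn7sk scaling. Under total counts 13 of the 32 were below 0, beside 25.3% of all loci, and under Rn7sk scaling 16, beside 28.1%. Of the 46 loci, 44 had enough counts to be tested, and 37 of these 44 (84.1%) had a log2 fold change below 0, beside 50.7% of all 21358 tested loci. The members' median log2 fold change was -0.19, and it became 0.04 under total counts and 0.02 under Rn7sk scaling. A change of scaling moves all loci by nearly the same amount, so the gap between the members' median and the median of all loci was bound to be alike, at -0.19, -0.18 and -0.18, and 37 of the 44 members lay below the median of all loci. By edgeR's quasi-likelihood test with adjustment over all loci, 1 member was called at an adjusted p under 0.05, Psmd8 of the lid, which was lower in KO; 1.84% of all tested loci were called, 0.431% lower and 1.41% higher. At an unadjusted p under 0.05, 7 members (15.9%) were lower and none higher, against 9.73% and 12.5% of all loci. Under total counts no member was called by edgeR, where 3.16% of all loci were called, 0.164% lower and 2.99% higher. At an unadjusted p under 0.05, 1 member was lower and 4 were higher under total counts, beside 2.36% and 22.5% of all loci, and 15 of 44 had a log2 fold change below 0, beside 25.3%. Under Rn7sk scaling none was called either, where 3.33% of all loci were called, 0.197% lower and 3.13% higher. There 1 member was lower at an unadjusted p under 0.05 and none higher, beside 2.19% and 18.4%, and 19 had a log2 fold change below 0, beside 28.1%. DESeq2 called 3 members lower in KO, Psmd8, Psmd2 and Psmg2; it called 12.4% of all loci, 4.88% lower.

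**Figure D1:**
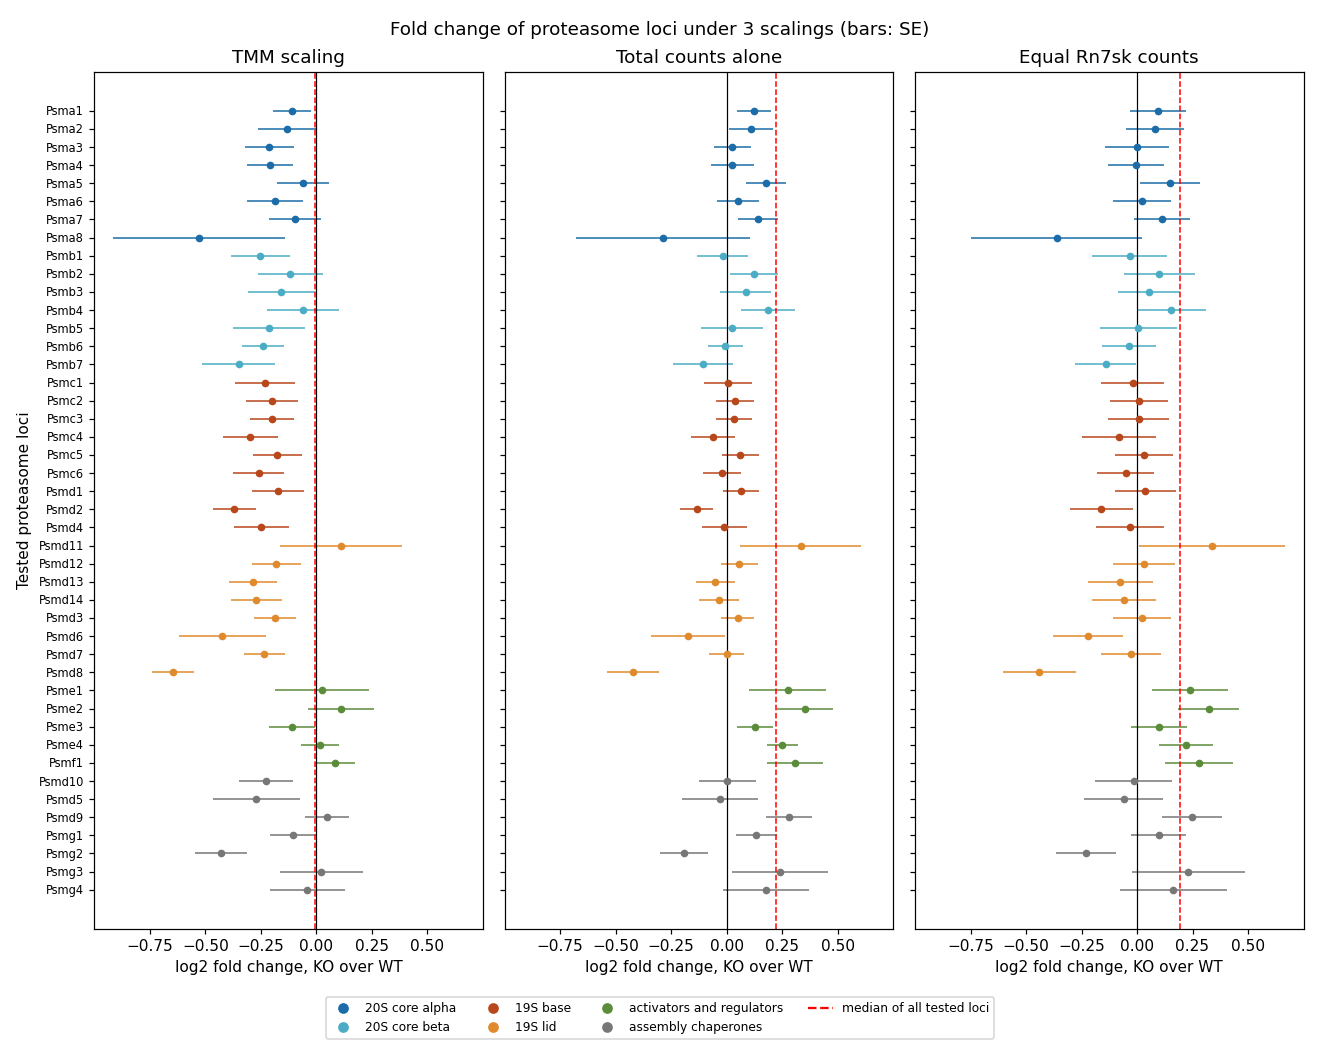
Log2 fold change of KO over WT (horizontal axis) for the 44 tested proteasome loci (vertical axis, coloured by class), in a panel for each of TMM, total-count and Rn7sk scaling, with bars as SE and a dashed red line at the median of all tested loci. The core, base and lid lie mostly below 0 under TMM and around 0 under the other scalings, and Psmd8 lies lowest of all 44 in each panel.

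The 3 KO libraries lay wholly below the 3 WT libraries for 13 of the 44 members (29.5%) under TMM, beside 14.2% of all loci, and wholly above for none, beside 16.3%. Of those 13 members, 5 were in the base and 5 in the lid. Under total counts the groups did not overlap for 3 members lower in KO (Psmd8, Psmd2 and Psmg2), beside 3.09% of all loci, and for 8 higher, beside 29.8%. Under Rn7sk scaling they did not overlap for 2 lower (Psmd8 and Psmg2), beside 2.74%, and for 3 higher (Psme2, Psme4 and Psmd9), beside 24.6%. Of all members, Psmd8 and Psmg2 had lower, non-overlapping KO values under every one of the 3 scalings.

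WT replicate 1 was the highest of the 6 libraries for 36 of the 44 members, and it was also the library with the most cortex marker RNA. Without it the median over the members moved from -0.19 to -0.092, and 32 of 44 were below 0. The lowest library was KO replicate 2 for 18 members, WT replicate 2 for 12, KO replicate 1 for 9, KO replicate 3 for 3, and WT replicates 1 and 3 for 1 each. The WT libraries were also more spread: the median coefficient of variation was 12.1% in WT and 4.92% in KO, and the SD was larger in WT for 40 of the 44 members. The spread of all tested loci is not given here, so the difference was not shown to be particular to the proteasome genes.

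**Figure D2:**
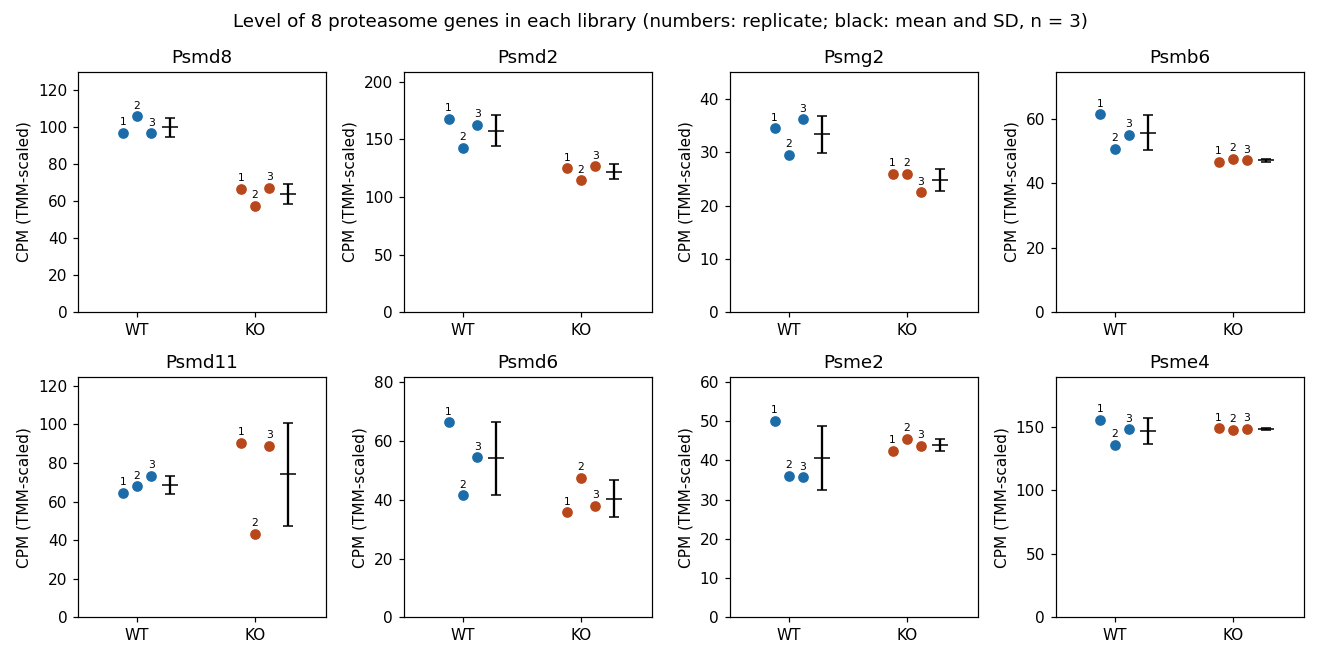
TMM-scaled CPM of 8 proteasome genes in each library, with points numbered by replicate (WT blue, KO orange) and black bars for the mean and SD of 3 libraries. Psmd8, Psmd2, Psmg2 and Psmb6 have all KO points below all WT points, Psmd11 and Psmd6 split KO replicate 2 from the other KO libraries, and Psme2 and Psme4 overlap.

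The promoters of the members with the smallest p in each structural class, among those with an entry, show what sequence stands before the genes discussed next. RefSeq promoter windows on GRCm38.p6, from 250 bases before the transcription start to 50 after it, were found for 37 of the 45 genes and made 40 windows. Psma8, Psmb1, Psmb2, Psmb7, Psmc3, Psmd3, Psmd7 and Psmg2 had no entry. Capitals mark matches on either strand to the 9 motifs searched, which came from textbook knowledge and were settled after a first look at these windows; overlapping matches were all counted.
Psma4: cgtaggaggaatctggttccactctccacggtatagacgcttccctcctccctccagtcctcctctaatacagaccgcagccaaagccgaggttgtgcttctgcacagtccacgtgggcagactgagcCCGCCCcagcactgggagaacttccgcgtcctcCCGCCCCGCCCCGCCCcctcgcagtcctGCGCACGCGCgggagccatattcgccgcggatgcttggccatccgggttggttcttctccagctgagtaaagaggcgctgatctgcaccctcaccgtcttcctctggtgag
Psmb6: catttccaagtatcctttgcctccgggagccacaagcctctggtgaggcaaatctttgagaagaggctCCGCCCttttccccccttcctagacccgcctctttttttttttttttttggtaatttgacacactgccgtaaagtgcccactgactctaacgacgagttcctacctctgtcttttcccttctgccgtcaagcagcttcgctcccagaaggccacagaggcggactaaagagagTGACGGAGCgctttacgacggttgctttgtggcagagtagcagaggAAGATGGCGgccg
Psmd2: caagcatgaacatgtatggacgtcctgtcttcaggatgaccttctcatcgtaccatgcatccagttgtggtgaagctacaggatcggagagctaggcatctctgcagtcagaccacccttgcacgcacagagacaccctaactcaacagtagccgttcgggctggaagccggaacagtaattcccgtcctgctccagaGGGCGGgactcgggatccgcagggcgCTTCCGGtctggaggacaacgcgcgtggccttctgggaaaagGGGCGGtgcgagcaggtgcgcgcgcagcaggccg
Psmd8: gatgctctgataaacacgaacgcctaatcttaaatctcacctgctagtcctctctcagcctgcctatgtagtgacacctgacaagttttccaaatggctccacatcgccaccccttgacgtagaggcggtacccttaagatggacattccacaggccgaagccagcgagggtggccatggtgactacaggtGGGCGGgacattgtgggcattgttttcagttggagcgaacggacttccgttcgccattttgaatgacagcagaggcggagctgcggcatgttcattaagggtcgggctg
Psma4, at chr9:54950609-54950908 on the plus strand, held 4 GC boxes (GGGCGG, here as CCGCCC on the opposite strand) and 1 match to the motif of nuclear respiratory factor 1, which is another factor than the product of Nfe2l1. Psmb6, at chr11:70525107-70525406 on the plus strand, held TGACGGAGC, a match to the antioxidant response element TGACNNNGC, 9 bases before the start, a GC box, and the YY1 motif AAGATGGCG 38 bases after the start. Psmd2, at chr16:20651402-20651701 on the plus strand, held 2 GC boxes and the ETS motif CCGGAAG on the opposite strand, 26 bases before the start. Psmd8, at chr7:29180624-29180923 on the minus strand, held 1 GC box, 59 bases before the start, and no match to the other motifs.

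Over all windows of members, the ETS motif was in 37.5% of 40, beside 8.86% of the 32851 mouse promoters in the table. The GC box was in 57.5% beside 35.7%, and the motif of nuclear respiratory factor 1 in 17.5% beside 4.60%. The antioxidant response element was in 15.0% beside 12.4%, in Psmb5, Psmb6, Psmc6, Psmd12, Psmd9 and Psme4. The CCAAT box was in 32.5% beside 37.4%, AAGATGGCG in 5.0% beside 1.40%, TATAAA in 7.5% beside 13.6%, the heat shock element GAANNTTC in 5.0% beside 7.86%, and the cyclic AMP element TGACGTCA in none beside 1.79%. The median TMM log2 fold change was -0.20 for members with the ETS motif and -0.17 for those without, and -0.20 and -0.18 with and without the antioxidant response element. A match is a description of letters and was not tested as a binding site.

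In the 19S lid, 7 of the 8 genes had a TMM log2 fold change below 0, beside 50.7% of all loci. The class median was -0.25, which became -0.02 under total counts and -0.04 under Rn7sk scaling. Psmd8, whose product is the lid subunit Rpn12, was the one proteasome gene called lower in KO. It lies on chromosome 7 (GRCm38, 29174188 to 29180701), and the promoter printed above belongs to it. Psmd8 had 96.9, 105.6 and 96.5 CPM in WT and 66.6, 57.4 and 67.1 CPM in KO. All KO libraries lay below all WT libraries. Its log2 fold change was -0.65 (SE 0.095; edgeR adjusted p = 0.0385), or 1.57-fold lower. Under total counts the log2 fold change of Psmd8 was -0.42 (edgeR adjusted p = 0.0998) and under Rn7sk scaling -0.44 (edgeR adjusted p = 0.188), with no overlap in either, so the direction held and the call did not. Leaving out any single library also ended the call, with edgeR adjusted p from 0.0523 to 0.148.

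The other lid genes had smaller differences. Psmd13, the Rpn9 subunit, had 37.4, 30.7 and 33.8 CPM in WT and 27.6, 26.2 and 29.7 CPM in KO, which did not overlap (log2 fold change -0.29, SE 0.11; edgeR adjusted p = 0.195). Psmd7, the Rpn8 partner of the deubiquitinase Psmd14, had 61.9, 53.0 and 56.4 CPM in WT and 51.0, 46.0 and 48.6 CPM in KO, also without overlap (log2 fold change -0.23, SE 0.093; edgeR adjusted p = 0.211). Psmd11, the Rpn6 subunit that braces the lid against the core, had 64.7, 67.9 and 73.5 CPM in WT and 90.4, 43.2 and 88.8 CPM in KO. KO replicate 2 was the lowest of the 6 libraries for Psmd11 and the other KO libraries were the highest, so the groups overlapped widely (log2 fold change 0.11, SE 0.28; edgeR adjusted p = 0.851). Psmd6, the Rpn7 subunit, which was chosen after its values were seen, had 66.3, 41.5 and 54.4 CPM in WT and 35.7, 47.4 and 37.9 CPM in KO. For Psmd6, KO replicate 2 was the highest KO library and lay inside the WT range (log2 fold change -0.42, SE 0.196, edgeR adjusted p = 0.263). The loci of Psmd6 and Psmd11 in the deposited table spanned 126391 and 94130 bases, against 8811 and 44634 in the GENCODE annotation, so their counts can include reads from outside the gene. The locus of Psmd8 had the same span as the GENCODE gene.

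All 9 genes of the 19S base had a TMM log2 fold change below 0, beside 50.7% of all loci. Of them, 5 were lower in KO without overlap, beside 14.2% of all loci. Under total counts 1 of the 9 was, beside 3.09% of all loci, and under Rn7sk scaling 0, beside 2.74%. The class median was -0.23, and it lay near 0 under the other scalings, at 0.0066 under total counts and -0.02 under Rn7sk scaling. Psmd2, whose product Rpn1 is the large scaffold that receives ubiquitin shuttle factors, lies on chromosome 16 and had 167.8, 142.4 and 162.4 CPM in WT and 124.7, 114.3 and 126.4 CPM in KO. Its groups did not overlap, but the change was not called by edgeR (log2 fold change -0.37, SE 0.097; adjusted p = 0.103), while DESeq2 gave an adjusted p of 0.0250. Under total counts Psmd2 kept the gap between the groups, with a log2 fold change of -0.14, and under Rn7sk scaling it was -0.16 with overlap. Psmc4, the ATPase Rpt3, had 52.1, 42.0 and 48.3 CPM in WT and 40.3, 34.1 and 41.4 CPM in KO, just without overlap (log2 fold change -0.30, SE 0.12; edgeR adjusted p = 0.222). Psmc6, the ATPase Rpt4, had 83.2, 62.9 and 73.0 CPM in WT and 59.1, 61.9 and 61.8 CPM in KO (log2 fold change -0.26, SE 0.12; edgeR adjusted p = 0.249). Psmd1, the Rpn2 scaffold, had the smallest difference of the base, with 172.1, 130.6 and 151.5 CPM in WT and 133.3, 131.1 and 138.2 CPM in KO (log2 fold change -0.17, and 0.06 and 0.04 under total counts and Rn7sk scaling).

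The 7 tested beta subunits of the 20S core all had a TMM log2 fold change below 0, beside 50.7% of all loci. Their median was -0.21, which became 0.02 under total counts and 0.0061 under Rn7sk scaling. Without WT replicate 1 the median of the beta subunits was -0.047. Psmb6, which carries the caspase-like site, had 61.4, 50.8 and 55.0 CPM in WT and 46.6, 47.6 and 47.1 CPM in KO. The KO values of Psmb6 lay close to each other and below all WT values, and the change was not called (log2 fold change -0.24, SE 0.095; edgeR adjusted p = 0.206). Psmb7, which carries the trypsin-like site, had 165.8, 111.0 and 119.9 CPM in WT and 98.0, 112.8 and 100.3 CPM in KO, overlapping through WT replicate 2 and KO replicate 2 (log2 fold change -0.35, SE 0.17; edgeR adjusted p = 0.269). Psmb1 had 88.2, 71.8 and 71.6 CPM in WT and 62.8, 57.9 and 73.6 CPM in KO (log2 fold change -0.25). Psmb4 was the member of the class nearest to 0, at -0.06, with 85.3, 54.3 and 71.0 CPM in WT and 66.4, 67.5 and 68.0 CPM in KO, and its sign turned under total counts and Rn7sk scaling, to 0.19 and 0.15.

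The 8 alpha subunits likewise all had a TMM log2 fold change below 0, beside 50.7% of all loci. None of the 8 had an unadjusted p under 0.05 by edgeR or was called by DESeq2. Their median was -0.16, 0.08 under total counts and 0.05 under Rn7sk scaling. Psma4 had 32.8, 27.7 and 27.3 CPM in WT and 24.9, 25.7 and 25.4 CPM in KO, without overlap (log2 fold change -0.21, SE 0.10; edgeR adjusted p = 0.284). Psma3, one of the subunits whose tails close the gate, had 110.8, 88.6 and 102.7 CPM in WT and 82.8, 83.9 and 94.2 CPM in KO (log2 fold change -0.21). Psma6 had 62.0, 45.3 and 51.6 CPM in WT and 46.8, 46.5 and 46.0 CPM in KO (log2 fold change -0.19). Psma5 was nearest to 0 in its class, at -0.06, with 45.6, 34.8 and 38.0 CPM in WT and 37.8, 37.2 and 38.4 CPM in KO, and was above 0 under the other scalings.

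Tissue-restricted members of the core were at or near the floor. Psma8, which replaces Psma7 in the proteasome of male germ cells, had 0.810, 0.798 and 1.65 CPM in WT and 0.679, 0.998 and 0.580 CPM in KO (log2 fold change -0.53, SE 0.39; edgeR adjusted p = 0.459), in glands of female mice. Psma8 stood at 2.88% ± 1.39 (SD, n = 3) of the Psma7 level per length in WT and 2.09% ± 0.580 in KO, with overlap, and reads of these close paralogues may be split by the counting. The germ cell markers Ddx4, Sycp3, Dazl and Acrv1 summed to 0.472 to 0.785 CPM in WT and 0.750 to 1.34 in KO, Acrv1 being at 0 counts in all libraries. Psmb11, the beta subunit of the thymoproteasome of thymic cortical epithelium, had 3, 6 and 3 counts in WT and 2, 4 and 13 in KO and was not tested. The thymic markers, Psmb11 among them, summed to 10.8 to 13.4 CPM in WT and 12.98 to 16.4 in KO, nearly all of it Ccl25.

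The activators and regulators had TMM differences near 0. Of 5 genes, 1 had a log2 fold change below 0, beside 50.7% of all loci. None had an unadjusted p under 0.05 by edgeR, DESeq2 called none, and the class median was 0.02. Under total counts and Rn7sk scaling the class median was 0.27 and 0.24, close to the medians of all loci, 0.22 and 0.19. Psme4, whose product PA200 opens the core without ubiquitin and is known from chromatin and male germ cells, had 155.7, 136.0 and 148.1 CPM in WT and 148.7, 147.8 and 148.2 CPM in KO. The KO values of Psme4 lay inside the WT range (log2 fold change 0.02, SE 0.084; edgeR adjusted p = 0.933). Psme3, the nuclear activator PA28 gamma, had 148.9, 119.6 and 124.8 CPM in WT and 125.2, 119.1 and 120.1 CPM in KO (log2 fold change -0.11, and 0.13 and 0.10 under total counts and Rn7sk scaling). Its locus is joined with Aoc2 in the deposited table.

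Psme2, the beta subunit of the interferon-inducible activator PA28, had 50.1, 36.1 and 35.7 CPM in WT and 42.5, 45.5 and 43.7 CPM in KO (log2 fold change 0.11, SE 0.15; edgeR adjusted p = 0.701). Psme2 has a close copy, Psme2b, between which and Psme2 the counting may have split reads; the deposited table joins Psme2b with 2 other genes in a locus of 3048 to 7946 counts. Psmf1, which encodes the inhibitor PI31, had 19.7, 22.5 and 21.4 CPM in WT and 22.5, 22.7 and 22.3 CPM in KO (log2 fold change 0.08, SE 0.091; edgeR adjusted p = 0.624).

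Among the assembly chaperones, 5 of 7 tested loci had a TMM log2 fold change below 0, beside 50.7% of all loci. Their median was -0.10, which became 0.13 under total counts and 0.10 under Rn7sk scaling. Psmg2, whose product PAC2 pairs with PAC1 (Psmg1) to order the alpha ring, had 34.5, 29.5 and 36.2 CPM in WT and 26.0, 25.9 and 22.5 CPM in KO. The groups did not overlap, and edgeR did not call the difference (log2 fold change -0.43, SE 0.12; adjusted p = 0.111), while DESeq2 gave an adjusted p of 0.0275. Psmd10, the chaperone gankyrin of the base, had 14.03, 12.8 and 11.8 CPM in WT and 10.99, 10.1 and 11.97 CPM in KO (log2 fold change -0.23). Psmd5, the chaperone S5b of the base, had 76.0, 52.4 and 55.9 CPM in WT and 61.5, 49.3 and 41.9 CPM in KO (log2 fold change -0.27). A second, small Psmd5 locus had 0 counts in 5 libraries and 8 in KO replicate 3, and was not tested. Psmd9, the base chaperone p27, had the highest log2 fold change of the class, with 15.3, 13.8 and 15.4 CPM in WT and 15.2, 15.9 and 14.9 CPM in KO (log2 fold change 0.05, SE 0.099; edgeR adjusted p = 0.815); it overlaps the liver gene Hpd on the other strand.

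Levels per length (RPKM, TMM-scaled counts per kilobase of the exons of a locus) differed several-fold between subunits that the particle holds in equal number. In WT the lowest of the 20S core without Psma8 and Psmb11 was Psma2 at 12.05 RPKM and the highest Psmb2 at 58.0 RPKM, a 4.81-fold range. Base genes ran from Psmd1 at 7.39 RPKM to Psmd2 at 39.0 RPKM, and lid genes from Psmd13 at 7.88 to Psmd8 at 30.5 RPKM. In the base and the lid, the gene with the highest RPKM in WT also had the smallest p of its class (edgeR). In the other classes these were different genes. Psma6, Psmb2, Psme1 and Psmd5 had the highest RPKM there, and Psma4, Psmb6, Psme3 and Psmg2 the smallest p. Activators and regulators ran from Psmf1 at 3.29 to Psme1 at 24.8 RPKM, and chaperones from Psmg3 at 0.396 to Psmd5 at 10.02 RPKM. Lengths came from the deposited table, where 15 of the 46 loci had a span that differed from GENCODE and 5 were joined with another gene, so a level of those loci is less certain. Psma2, Psmd1 and Psmg3, the low ends of their ranges, were among the joined loci, so these ranges are less certain too. Psma6, Psmb4, Psmb7, Psmc6 and Psmg1 were among the loci with another span. Deposited lengths also differed among loci with the GENCODE span, at 4595 bases for Psmb1 and 4310 for Psmd13 but 1309 for Psmb2. The ranges thus depend on the annotated length too, and its part in them was not tested.

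Ratios of levels per length within a library do not depend on the scaling. Psmd8 stood at 2.08, 2.78 and 2.27 times the geometric mean of the other lid genes in WT and at 1.77, 1.71 and 1.76 times in KO. The KO ratios of Psmd8 were close to each other and below every WT ratio, 0.736 times the WT mean. Psmd2 stood at 2.33 ± 0.135 (SD, n = 3) times the other base genes in WT and 2.10 ± 0.0395 in KO, again without overlap. Psmg2 stood at 3.10 ± 0.131 times Psmg1 in WT and 2.48 ± 0.128 in KO, without overlap. These pairs were chosen after their values were seen, so no test was made on them. The Psmg1 locus spanned 101674 bases, against 11028 in the GENCODE annotation. Its counts can include reads from outside the gene, so the ratio of Psmg2 to Psmg1 is less certain. The base over the 20S core was 0.704 ± 0.0209 in WT and 0.670 ± 0.0283 in KO, and the lid over the core 0.553 ± 0.0358 and 0.513 ± 0.0358, both with overlap. Psme4 over the core was 0.315 ± 0.0259 in WT and 0.357 ± 0.00994 in KO, and Psmd9 over the core 0.0788 ± 0.00854 and 0.0908 ± 0.00477, both higher in KO without overlap. Psme1 and Psme2 over the core overlapped, at 0.902 ± 0.0851 in WT and 1.08 ± 0.0789 in KO. Psme3 over the core, at 0.714 ± 0.0268 in WT and 0.743 ± 0.0365 in KO, also overlapped. So did Psmf1 over the core, at 0.128 ± 0.0261 and 0.150 ± 0.00479. Against the median proteasome locus of each library, 23.7% of all loci lay higher in KO without overlap. A higher ratio was thus not particular to Psme4 or Psmd9.

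**Figure D3:**
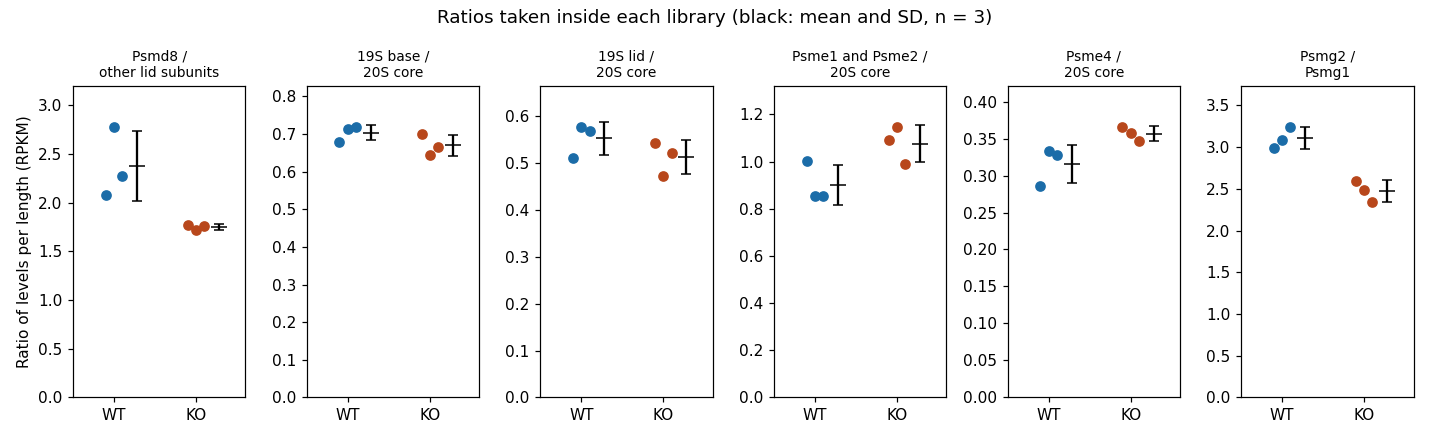
Ratios of RPKM within each library for 6 pairs or classes, with points as the 3 WT (blue) and 3 KO (orange) libraries and black bars for mean and SD. Psmd8 over the other lid genes lies between 2.08 and 2.78 in WT and between 1.71 and 1.77 in KO, Psmg2 over Psmg1 is lower and Psme4 over the core higher in KO, and the other 3 ratios overlap.

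Each member was also read relative to the median proteasome locus of its own library, an alternative chosen after seeing the data. Against that median 3 members lay lower in KO without overlap (beside 3.24% of all loci): Psmd8 by a log2 difference of -0.45, Psmd2 by -0.17 and Psmc6 by -0.05. Another 9 lay higher, beside 23.7% of all loci: Psma5, Psma7, Psmb4, Psmc5, Psmd1, Psme2, Psme3, Psme4 and Psmd9. These are differences of KO from WT, not levels above or below the proteasome median. The median difference of the activators was 0.26, with Psme2 at 0.33, Psme4 at 0.22 and Psme3 at 0.10. Psme2 itself lay below the proteasome median in both groups, at -0.42 in WT and -0.09 in KO. The core, base and lid had median differences of KO from WT within 0.06 of 0. These classes hold 32 of the 44 tested loci and so largely set the median that was subtracted. Their closeness to 0 is therefore not a result about them.

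**Figure D4:**
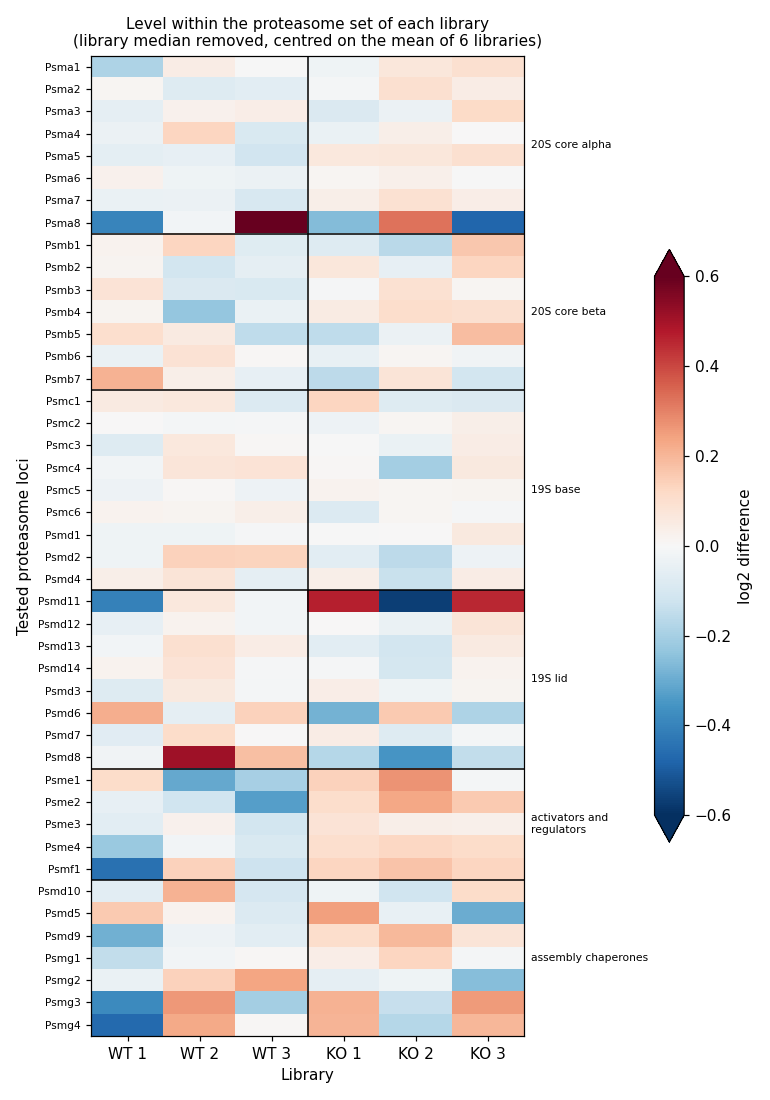
Each tested proteasome gene (vertical axis, by class) in each library (horizontal axis), coloured by its log2 level minus the median proteasome locus of that library, centred on its mean over the 6 libraries; colours end at 0.6 either way. Psmd8 is above its mean in WT replicates 2 and 3 and below it in the 3 KO libraries, and the activators are mostly above theirs in KO.

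A list of 44 genes of the ubiquitin and proteasome pathway outside the name rule, of which 40 were found and 39 tested, was read beside the members. None was called by edgeR under TMM, beside 1.84% of all loci, and DESeq2 called 3, Psmb8 and Nfe2l2 among them, beside 12.4%. At an unadjusted p under 0.05 by edgeR there were 8 of the 39 in either direction, beside 9.73% of all loci lower and 12.5% higher. Under TMM 29 of the 39 lay below 0, beside 50.7% of all loci, with a median of -0.14; under total counts 9 did, beside 25.3%, and under Rn7sk scaling 12, beside 28.1%. Under total counts the median was 0.10 and 1 gene was called, beside 3.16% of all loci: Zfand5, which encodes a proteasome-binding activator and was higher in KO (edgeR adjusted p = 0.0383). Nfe2l2, the transcription factor NRF2 that binds antioxidant response elements, had 187.3, 158.6 and 207.8 CPM in WT and 118.9, 120.4 and 131.8 CPM in KO, without overlap (log2 fold change -0.58, SE 0.12; edgeR adjusted p = 0.0672). Nfe2l1, the factor known for the joint induction of proteasome genes, had 443.4, 301.8 and 297.0 CPM in WT and 311.9, 285.6 and 266.2 CPM in KO, with overlap and WT replicate 1 highest (log2 fold change -0.27, SE 0.18). Under total counts and Rn7sk scaling the log2 fold change of Nfe2l2 was -0.34 and -0.37, and that of Nfe2l1 -0.029 and -0.056. Zfand5 had a TMM log2 fold change of 0.34, and 0.58 and 0.56 under total counts and Rn7sk scaling. The deubiquitinase Uchl5 had -0.35 under TMM and -0.11 and -0.15 under the others, the p97 cofactor Ufd1 -0.29 and then -0.052 and -0.075, and the ligase Kcmf1 -0.22 and then 0.01 and -0.016.

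The inducible subunits that replace the 3 catalytic ones in the immunoproteasome had TMM log2 fold changes above 0. Psmb8 had 6.79, 8.19 and 5.15 CPM in WT and 11.4, 12.8 and 12.9 CPM in KO, without overlap (log2 fold change 0.88, SE 0.19; edgeR adjusted p = 0.0701), and under Rn7sk scaling it was called higher (log2 fold change 1.08; edgeR adjusted p = 0.0473). Psmb9 had a TMM log2 fold change of 0.59 with overlap (edgeR adjusted p = 0.269), and Psmb10 0.33 without overlap (edgeR adjusted p = 0.211). Under TMM 16.3% of all loci lay higher in KO without overlap. Per length, Psmb8 stood at 4.78% ± 1.41 (SD, n = 3) of Psmb5 in WT and 10.1% ± 0.775 in KO. Psmb10 stood at 20.5% ± 6.12 and 31.5% ± 3.06 of Psmb7, and Psmb9 at 4.71% ± 1.88 and 8.18% ± 1.59 of Psmb6, the last with overlap. Psmb7, the divisor for Psmb10, itself had a TMM log2 fold change of -0.35. Against the median proteasome locus of each library, 23.7% of all loci lay higher in KO without overlap. The summed macrophage and lymphocyte markers given above overlapped between the groups, with none of them at 0 in all libraries, and their part in the values of these genes was not tested. The Psmb7 locus, to which Psmb10 was compared, spanned 318331 bases, against 56052 in the GENCODE annotation. Its counts can include reads from outside the gene.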

How the data were processed

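RNA from adrenal glands of 3 WT and 3 KO samples was depleted of rRNA and sequenced, per the labels' protocols. The submitters' processing notes name Trimmomatic, STAR, Picard, StringTie and edgeR, without versions; of the strand setting of the counting nothing is given in the sources. The authors deposited 1 table with raw counts per locus and library, gene length and log2 CPM; per the file headers the counts are not normalized, and the deposited log2 values served only in an alternative. Loci without a name (6596, 1.39% to 2.04% of counts) were left out.

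Counts were fitted with edgeR 4.0.16 in R 4.3.3: filterByExpr by group, TMM factors, robust quasi-likelihood fit and a two-sided quasi-likelihood test, with Benjamini-Hochberg adjustment over 21358 loci and a threshold of 0.05. The SE is the log2 fold change over the root of F. Scaling by total counts, by Rn7sk and by RLE, other filters, DESeq2 1.42.0, limma 3.58.1, a replicate block and leaving out each library were alternatives. RPKM used the deposited length. The steps were tested on simulated data. Named members were those called under any of the 3 scalings, the 3 with the smallest p and the highest and lowest log2 fold change of each class, and Psma8, Psmb11, Psme3 and Psme4; Psmd6 and Psme1 were added after their values were seen. Partner genes named were among the 4 with the smallest p of their group; 1 such gene is not reported here. Of 46 loci, 5 were joined with another gene (Psmb5, Psmg3, Psma2, Psme3 and Psmd1), and 9 overlapped a coding gene on the other strand. The members and lists were chosen with earlier results of these data known.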

Additional observations from a re-analysis of the deposited data

How the results depend on the processing

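The alternatives numbered 15 and the members named 25; of these 25, members not given here kept their direction and their side of the threshold, apart from Psmd8, Psmd2 and Psmg2. The other tested members were read under the scalings alone. Psmd8 kept its direction in each alternative, with an adjusted p of 0.147 under the replicate block (edgeR), 0.121 without WT replicate 1 and KO replicate 3 (edgeR) and 0.0928 with limma, and Psmd2 and Psmg2 were called by DESeq2. The count of members called was 1 with RLE factors, without a filter and with a 10 CPM minimum in 3 libraries. It was 0 with total counts, Rn7sk, each library left out (a range of 0 to 0, with 3 to 16 at an unadjusted p under 0.05), WT replicate 1 and KO replicate 3 left out together (3) and limma (5), and 3 with DESeq2. The partner count was 1 with total counts and with Rn7sk, 3 with DESeq2, 2 with limma and 0 to 2 with a library left out (2 without WT replicate 2). The replicate numbers gave no sign of pairing the samples (correlations of deviations -0.0857, 0.0118 and -0.142), which 3 pairs of libraries cannot settle. A fit with the replicate block called 0 members (5 at an unadjusted p under 0.05) and 5 of 21358 loci. Over all loci, 393 were called, and 674 with total counts, 711 with Rn7sk, 2626 with DESeq2, 975 with limma and 15 to 644 with a library left out. The calls were higher in KO for 76.6% with TMM, 94.8% with total counts and 94.1% with Rn7sk.

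Class medians for all members, alpha, beta, base, lid, activators and chaperones were 0.043, 0.081, 0.025, 0.0066, -0.018, 0.27 and 0.13 with total counts, 0.016, 0.051, 0.0061, -0.018, -0.042, 0.24 and 0.098 with Rn7sk, and 0.037, 0.078, 0.021, 0.00038, -0.025, 0.29 and 0.13 with limma on the deposited log2 CPM, which are scaled by total counts. With a library left out the beta median ran from -0.27 to -0.047, the last without WT replicate 1, and the activators' median from -0.018 without WT replicate 2 to 0.089.

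Among the 25 named members the signs that reversed were these, and the cause was not tested; members outside the 25 also turned with the scaling. With a library left out, Psma5 ran from -0.13 to 0.053, Psmb4 from -0.20 to 0.10, Psmd11 from -0.081 to 0.38, Psme4 from -0.018 to 0.062 and Psmd5 from -0.43 to 0.034, counting WT replicate 1 and KO replicate 3 left out together. With total counts they were Psma3 0.025, Psma4 0.025, Psma5 0.18, Psma6 0.052, Psmb4 0.19, Psmd1 0.065, Psme3 0.13 and Psmd10 0.0022. With Rn7sk they were Psma5 0.15, Psma6 0.022, Psmb4 0.15, Psmd1 0.037 and Psme3 0.099. With limma they were Psma3 0.016, Psma4 0.020, Psma5 0.17, Psma6 0.048, Psmb4 0.19, Psmd1 0.059 and Psme3 0.12. Relative to the proteasome median they were Psma5 0.15, Psma6 0.026, Psmb4 0.17, Psmd1 0.037 and Psme3 0.099. With the 10 CPM minimum they were Psma5 0.013 and Psmb4 0.017. Without WT replicate 1 they were Psma5 0.053 and Psmb4 0.10, and without WT replicate 1 and KO replicate 3 Psma5 0.043, Psmb4 0.096, Psmd11 -0.081 and Psmd5 0.034. Psmd11 was -0.058 without KO replicate 1 and -0.040 without KO replicate 3, and Psme4 -0.018 without WT replicate 2.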
